A study of Oryctolagus cuniculus with 8 samples.

Results

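The miR-17/miR-92 cluster and its paralogs, the miR-106b/miR-25 and miR-106a/miR-363 clusters, were followed in small RNA from extracellular vesicles of rabbit oviductal and uterine fluid. Members were taken by name: every mature miRNA of miR-17, miR-18a, miR-18b, miR-19a, miR-19b, miR-20a, miR-20b, miR-25, miR-92a, miR-93, miR-106a, miR-106b or miR-363, either arm, with at least 10 reads over all libraries. This gave 13 of the 579 mature names in the table. A further 6 names of these miRNAs had 1 to 9 reads, and 9 had none. The threshold used total reads and not the contrast between the fluids, but a sparse member can pass it through the reads of 1 fluid alone. Just inside it lay miR-20b-5p with 10 reads and miR-106b-5p with 15, and just outside it miR-19a-3p and miR-93-3p with 9 reads each.

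All animals were wild-type California x New Zealand white does, all primed with eCG (equine chorionic gonadotropin, 25 IU) and brought to ovulation with a GnRH analogue (20 µg) injected 48 h after it. Tracts were taken 14 to 15 h after the second injection, the oviduct flushed with 1 mL and the uterus with 2.2 mL of buffer, and vesicles were isolated by size exclusion chromatography. The oviductal group had 5 libraries, each a pool of 3 does, and the uterine group had 3 libraries, each a pool of 5 per the labels. One uterine library has the title number 12 but a library name numbered 1, and no source used here says if it combines pools. These pools ask for 30 animals where the study had 21 does, so pools may share animals, and p-values below measure the spread between pools. Libraries are named by the number in their title (oviductal 1 to 5, uterine 12, 3 and 4).

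These miRNAs are made from polycistronic transcripts, each cut into several hairpins, and each hairpin can give a mature miRNA from its 5p and its 3p side. The cluster is known as a target of the proliferation factor MYC, and its products are known to restrain cell cycle inhibitors and pro-apoptotic genes. By seed, the stretch from base 2 to base 8 that pairs with targets, miR-17, miR-20a, miR-20b, miR-93 and miR-106b (5p arms) form one family known to act on the cell cycle inhibitor CDKN1A. The 3p arms of miR-25, miR-92a and miR-363 form another, known to act on the pro-apoptotic gene BCL2L11, and miR-19a and miR-19b make up one more. In the RefSeq annotation of assembly mOryCun1.1 all 15 precursors of these miRNAs were matched by name and lay in 3 groups. One held mir-17, mir-18a, mir-19a, mir-20a, mir-19b-1 and mir-92a-1, one held mir-106b, mir-93 and mir-25 inside the gene MCM7, a helicase subunit of DNA replication, and one, on the X chromosome, held mir-106a, mir-18b, mir-20b, mir-19b-2, mir-92a-2 and mir-363.

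Libraries held 42684 to 569087 miRNA reads, counting 1 row per miRNA, and levels are CPM, counts scaled to a library total of 1000000 reads. The floor of 3 reads stood for 5.27 CPM in the deepest library (oviductal 5) and for 63.0 and 70.3 CPM in the shallowest, oviductal 2 and 3. Epithelial miRNAs (miR-200c and miR-141) made up 3.39% to 5.09% of oviductal reads and 0.470%, 2.36% and 1.44% of the reads of uterine 12, 3 and 4. The 2 most read of them differed. While miR-200c-3p was at 33455 to 49781 CPM in oviductal libraries, it was at 4287, 22631 and 12869 CPM in uterine 12, 3 and 4. The less abundant miR-141-3p was at 413, 929 and 1376 CPM there, all within its oviductal range of 351 to 1668 CPM. The miRNAs of multiciliated cells (miR-34b, miR-34c and miR-449) made up 2.77% to 6.12% of oviductal reads and 0.495%, 3.38% and 1.33% in the same order of uterine libraries.

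The members together held 21307 of 2359229 reads. Their mean share was 1.31% ± 0.442 (SD, n = 5) in oviductal and 0.771% ± 0.658 (SD, n = 3) in uterine libraries. By library the share was 0.828%, 1.62%, 1.91%, 1.13% and 1.07% in oviductal 1 to 5, and 0.445%, 0.341% and 1.53% in uterine 12, 3 and 4. Uterine 4 thus lay within the oviductal range, while uterine 12 and 3 lay below it. The most abundant miRNA of these vesicles, miR-148a-3p, took 47.6% and 54.4% of reads in uterine 12 and 3, against 29.2% in uterine 4 and 27.1% to 37.0% in the oviductal libraries. With miR-148a-3p taken out of the totals, the members held 0.849%, 0.747% and 2.16% in uterine 12, 3 and 4 and 1.31% to 2.69% in the oviductal libraries, so the order of the uterine libraries against the oviductal range was the same.

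The members were led by ocu-miR-92a-3p, with 69.3% of their reads, followed by ocu-miR-25-3p with 16.8%, ocu-miR-363-3p with 6.99%, ocu-miR-93-5p with 2.68% and ocu-miR-106b-3p with 1.53%. From here the prefix ocu (rabbit) is dropped. All 3 leading miRNAs carry the miR-92 seed, which accounted for a mean share of 1.19% ± 0.368 (SD, n = 5) in oviductal and 0.715% ± 0.614 (SD, n = 3) in uterine libraries. The miR-17 seed, spread over 5 members, accounted for 0.0808% ± 0.0546 and 0.0413% ± 0.0336 (SD, n = 5 and n = 3). The miR-19 seed had 1 member, miR-19b-3p, at 0.00358% ± 0.00664 and 0.00355% ± 0.00614.

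Mature miRNAs are of similar length, so their CPM were set side by side, although the efficiency of adapter ligation differs between sequences and was not measured. Over the 8 libraries miR-25-3p was above miR-363-3p in 8, and miR-92a-3p was above miR-25-3p in 7. Lower in the order the neighbours changed places: miR-363-3p was above miR-93-5p in 5 of 8 libraries, miR-93-5p above miR-106b-3p in 6, miR-106b-3p above miR-17-5p in 7, and miR-17-5p above miR-20a-5p in 3. The means of the last pair over all 8 libraries were 123 and 121 CPM, a difference that was not tested. By mean CPM, miR-92a-3p ranked 18 among all miRNAs in oviductal and 22 in uterine vesicles, and miR-25-3p ranked 44 and 39.

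**Figure D1:**
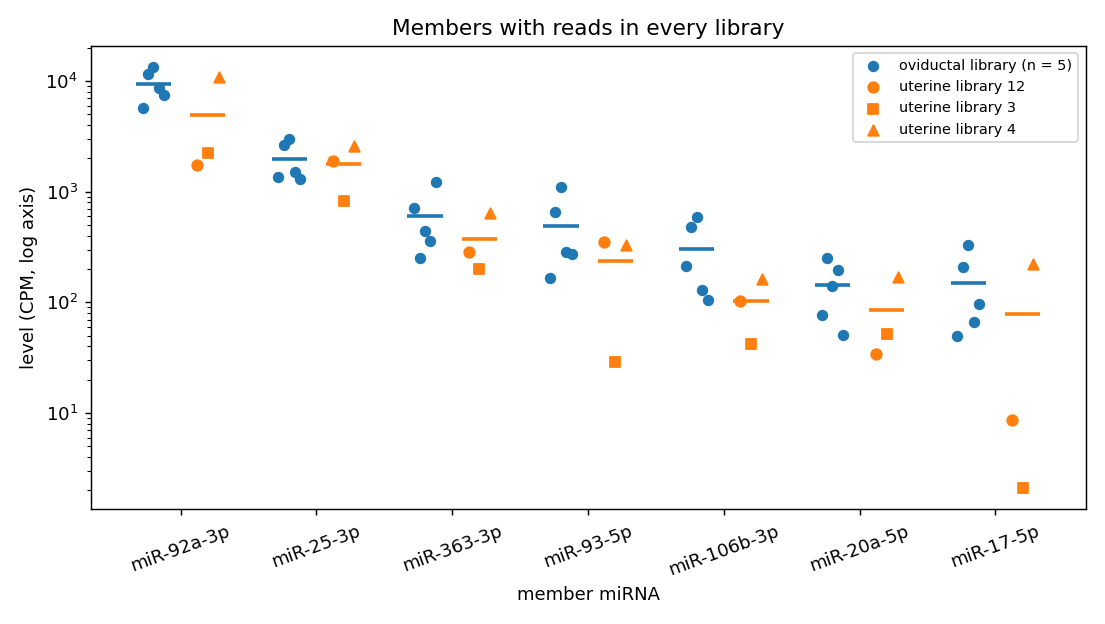
Level of the 7 members with reads in every library, in CPM on a log axis, for 5 oviductal libraries (blue circles) and 3 uterine libraries (orange, 1 symbol per library), with a line at each group mean. Uterine 4 (triangle) sat within the oviductal range for all 7 members, while uterine 3 (square) sat below it for 6 and uterine 12 (orange circle) for 4.

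Among the members of the miR-92 seed, miR-92a-3p was at 5662, 11576, 13401, 8586 and 7507 CPM in oviductal 1 to 5 and at 1750, 2238 and 10970.5 CPM in uterine 12, 3 and 4. The means were 9346 ± 3120 (SD, n = 5) and 4986 ± 5188 CPM (SD, n = 3). Uterine 12 and 3 lay below every oviductal library and uterine 4 above 3 of them, so the groups overlapped. The log2 fold change, uterine over oviductal, was -0.74 ± 0.49 (SE) with an edgeR adjusted p of 0.518, and was -1.48 without uterine 4 (edgeR adjusted p 0.0904). This miRNA is identical from both of its precursors, so its reads cannot be split between the miR-17/miR-92 and miR-106a/miR-363 clusters.

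The level of miR-25-3p, made from the MCM7 intron cluster, was 1372.5, 2647, 3022, 1512 and 1300.3 CPM in oviductal 1 to 5 and 1905, 827 and 2616 CPM in uterine 12, 3 and 4. Uterine 12 and 4 lay within the oviductal range and uterine 3 below it. The means were 1971 ± 803 (SD, n = 5) and 1783 ± 900.4 CPM (SD, n = 3), and the log2 fold change came to 0.20 ± 0.49 (SE; edgeR adjusted p 0.906). The sign of that value turned negative when library totals alone set the scale (-0.14) and without uterine 12 (-0.12).

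The X-linked miR-363-3p was at 716, 252, 445, 361 and 1228 CPM in oviductal 1 to 5 and at 288, 202 and 642 CPM in uterine 12, 3 and 4. Oviductal 5 and 1, the deepest oviductal libraries, were its highest, and among the uterine libraries only uterine 3 fell below the oviductal range. The log2 fold change was -0.48 ± 0.70 (SE), with an edgeR adjusted p of 0.825, and was -0.08 without oviductal 5, which held 46.9% of its reads, and -0.84 without both shallow oviductal libraries (2 and 3). Of the miRNAs with the same seed outside the cluster names, miR-32-5p had 27 reads, of which 16 were in oviductal 5, 8 in oviductal 1, 1 in uterine 12 and 2 in uterine 3, and miR-367-3p, known from pluripotent cells, had none.

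Among the members of the miR-17 seed, miR-93-5p was the most read, at 168, 651, 1101, 283 and 272 CPM in oviductal 1 to 5 and at 353, 29.2 and 333 CPM in uterine 12, 3 and 4. Uterine 3, with 14 reads, was the only library below the oviductal range. The log2 fold change was -0.65 ± 0.83 (SE), with an edgeR adjusted p of 0.802, and was -1.46 without uterine 12, -0.39 without uterine 3, -0.19 without oviductal 3 and 0.24 without both shallow oviductal libraries.

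The level of miR-17-5p, the name-giving member, was 49.8, 210.1, 328, 66.8 and 96.6 CPM in oviductal 1 to 5 and 8.60, 2.08 and 223 CPM in uterine 12, 3 and 4. The low values stand for 2 reads in uterine 12 and 1 read in uterine 3, in libraries of 232546 and 479865 reads, while uterine 4 had 65 reads. The log2 fold change was -0.86 ± 1.30 (SE), with an edgeR adjusted p of 0.825, and was -4.01 without uterine 4 (edgeR adjusted p 0.152), -0.42 without uterine 3, -0.48 without uterine 12, -0.45 without oviductal 3 and 0.01 without both shallow oviductal libraries.

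For miR-20a-5p, which comes from the same cluster as miR-17, levels were 77.0, 252, 141, 196 and 51.0 CPM in oviductal 1 to 5 and 34.4, 52.1 and 168 CPM in uterine 12, 3 and 4. Only uterine 12 lay below the oviductal range. The log2 fold change was -0.51 ± 1.08 (SE), with an edgeR adjusted p of 0.894, and ran from -0.95 (without uterine 4) to -0.20 (without oviductal 2) when single libraries were left out, with -0.21 without oviductal 4 and -0.30 without uterine 12. Members of this family differ by few bases, so reads may be shared among them by the counting, and the values of single members are uncertain.

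The remaining members of this seed were sparse. The X-linked miR-20b-5p had 10 reads, 8 of them in uterine 4 and 1 each in oviductal 1 and 2. For miR-106b-5p there were 13 oviductal reads, in all 5 libraries, and 2 uterine reads, in uterine 12 and 4, a uterine to oviductal ratio of 0.208 by summed reads (95% exact interval 0.0228 to 0.918). That interval covers counting error only, since reads without molecular identifiers are not independent molecules. The oviductal reads alone took miR-106b-5p past the threshold of 10 reads, so this ratio is a description and no evidence of a lower uterine level. No read of miR-106a or miR-18b was found in any library, which for each arm allows up to 3 reads of the 2359229.

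The miR-19 seed was rarely read. Of the 72 reads of miR-19b-3p, 39 were in oviductal 4 and 31 in uterine 4, with 1 each in oviductal 1 and 3 and none in the other 4 libraries. The 9 reads of miR-19a-3p were all in uterine 4. That library also held both reads of miR-18a-3p and the read of miR-17-3p, and it showed reads of 12 of the 13 members, against 8 in each of uterine 12 and 3 and 10 or 11 in the oviductal libraries. Reads of miR-19b-3p, like those of miR-92a-3p, fit a precursor in each of 2 clusters and cannot be split.

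Between the arms of a precursor the split was uneven, and the arm that carries the family seed was not always the more read one. In miR-92a, miR-25, miR-363, miR-93 and miR-17 the seed-bearing arm held nearly all reads: the other arm made up 0.270% of miR-92a reads (95% Clopper-Pearson interval 0.193% to 0.368%), 1.02% for miR-25, 0.401% for miR-363, 1.55% for miR-93 and 0.535% for miR-17. In miR-106b the opposite arm prevailed. Its 5p arm, with the miR-17 seed, made up 4.39% of 342 reads (95% Clopper-Pearson interval 2.48% to 7.13%), and miR-106b-3p the rest. These shares are over the summed reads of all libraries, and the intervals cover counting error only.

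The level of miR-106b-3p was 215, 483, 586, 130 and 105 CPM in oviductal 1 to 5 and 103, 41.7 and 161 CPM in uterine 12, 3 and 4. Uterine 12 and 3 lay below the oviductal range, uterine 12 by a small margin, and uterine 4 within it. The means were 304 ± 217 (SD, n = 5) and 102 ± 59.8 CPM (SD, n = 3), and the log2 fold change came to -1.20 ± 0.92 (SE; edgeR adjusted p 0.583), or -0.40 without both shallow oviductal libraries.

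Of the 37 reads of ocu-miR-25-5p, 28 were in oviductal 5, 7 in the other oviductal libraries and 2 in uterine 4. Its summed uterine to oviductal ratio was 0.0772 (95% exact interval 0.00899 to 0.300, counting error only). Its fitted log2 fold change was -3.34 ± 1.85 (SE), with an edgeR adjusted p of 0.430. Oviductal reads alone took miR-25-5p past the threshold on total reads. The summed ratio therefore describes these reads and gives no evidence of a lower uterine level. Without oviductal 5 the summed ratio was 0.224 (95% exact interval 0.0227 to 1.18), a value computed after the data were seen, and without uterine 4 the fitted log2 fold change was -5.83, against no uterine read. The 5p arms of miR-92a differ between its precursors and are the only reads that tell them apart. The arm of mir-92a-1, ocu-miR-92a-5p, had 24 reads, 9 in oviductal 5, 8 in uterine 3 and 7 in uterine 4. The arm of mir-92a-2, miR-92a-2-5p, had 16 reads, all in oviductal 5. By summed reads it was at least 3.95-fold lower in uterine vesicles (floor of 3 reads over the uterine group). That bound rests on oviductal 5 alone, and the same reads took miR-92a-2-5p past the threshold on total reads. It is thus a description and no evidence of a lower uterine level.

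The purpose of the series was to compare the miRNA content of oviductal with that of uterine vesicles. Of the 13 members, 8 passed the filter on low counts and were tested, and none was called by edgeR at an adjusted p of 0.05, where 1.69% of all 178 tested miRNAs were called. None had an unadjusted p under 0.05, against 15.7% of all tested miRNAs, and none was called by DESeq2 or limma-voom, although DESeq2 gave miR-25-5p no adjusted p. Without uterine 4, 3 of the 8 had an unadjusted p under 0.05 (miR-92a-3p, miR-17-5p and miR-25-5p, with edgeR p of 0.00606, 0.0234 and 0.0409), and none passed after adjustment. In that setting 40 of all 190 tested miRNAs had an unadjusted edgeR p under 0.05, and 9 were called. The groups overlapped in CPM for every one of the 13 members, while they did not for 14.6% of all tested miRNAs. The fold changes of 7 of the 8 were negative, against 51.1% of all tested miRNAs, with a median of -0.69 where the median of all was -0.02. Less RNA per vesicle and fewer vesicles of one kind cannot be told apart in these libraries. The SE of the 8 members ran from 0.49 to 1.85 on the log2 scale, and an adjusted p above the threshold does not show that the fluids carry the members alike.

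**Figure D2:**
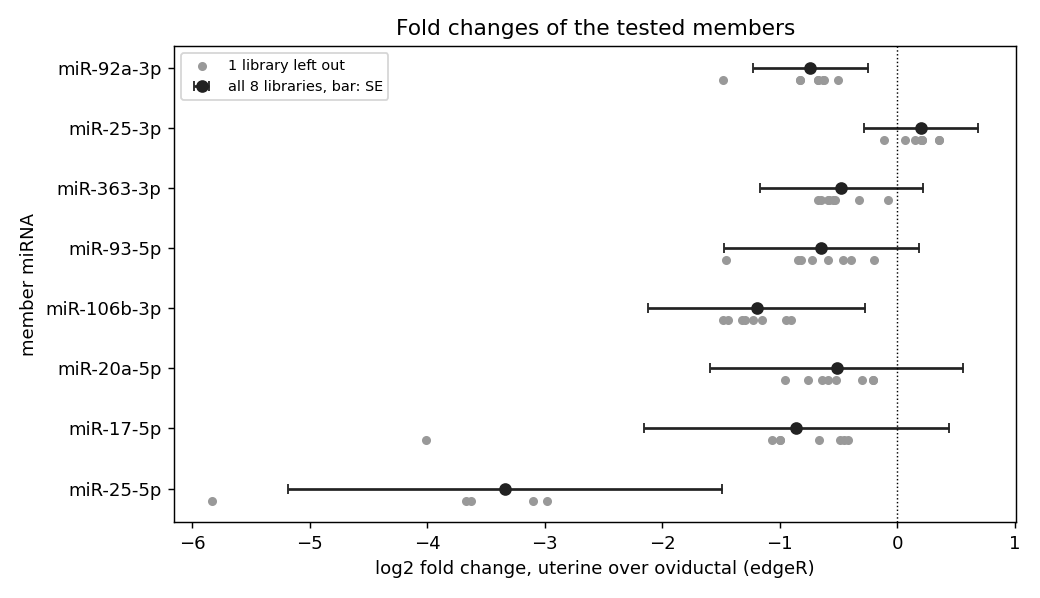
Log2 fold change, uterine over oviductal, of the 8 tested members by edgeR, with all 8 libraries (black, bar is 1 SE) and with each library left out in turn (grey points). The grey point farthest to the left for miR-92a-3p (-1.48) and for miR-17-5p (-4.01) is the value without uterine 4.

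Single libraries set much of this. Of the 7 members with reads in every library, uterine 12 lay below the oviductal range for 4, uterine 3 for 6 and uterine 4 for none, and no uterine library lay above it for any. Over all 116 miRNAs with reads in every library, the shares below the oviductal range were 49.1%, 50.0% and 23.3%, and those above it 22.4%, 7.76% and 31.0%. On the oviductal side, the shallow oviductal 2 and 3 held the highest levels of miR-92a-3p, miR-25-3p, miR-93-5p, miR-106b-3p and miR-17-5p. Without them, 4 of 7 tested members were negative and the median of the members was -0.18, with miR-92a-3p at -0.46. The part of depth in these levels was not tested further.

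Blood cell miRNAs were measured beside the members, since miR-92a, miR-25 and miR-93 are also abundant in red blood cells. Of the erythrocyte list 4 of 5 names had at least 10 reads, and miR-486-3p had none. Its share of oviductal reads ran from 0.0922% to 0.288%, and uterine 12, 3 and 4 had 0.362%, 0.123% and 0.768%. The leukocyte list, with 6 of 10 names at 10 reads or more, took 0.102% to 0.245% and 0.144%, 0.0786% and 0.367%. Uterine 4, the uterine library highest in the members, was also the highest in both lists, while uterine 12 was above the oviductal range for the erythrocyte list and low in the members. The erythrocyte miRNA miR-451-5p was at 3621 CPM in uterine 4, 2094 in uterine 12 and 571 in uterine 3, against 106 to 1160 CPM in the oviductal libraries. The most read of that list, miR-486-5p, was at 4009 CPM in uterine 4, 1453 in uterine 12 and 627 in uterine 3. Its oviductal levels ran from 491 to 2427 CPM, so for miR-486-5p uterine 12 and 3 lay within the oviductal range. Uterine 4 was likewise highest in the list of smooth muscle and mesenchyme (miR-143 and miR-145), at 4.67% of reads, with 2.31% in uterine 12, 0.483% in uterine 3 and 0.376% to 0.453% in the oviductal libraries. The liver miRNA miR-122-5p was highest in uterine 12, at 3057 CPM, with 579 and 299 CPM in uterine 3 and 4. The part of these cell types in the member levels was not tested.

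The make-up of the family was compared next. In oviductal 1 to 5 miR-92a-3p made up 68.4% to 76.0% of member reads and miR-25-3p 12.2% to 16.6%. In uterine 4 they made up 71.8% and 17.1%, in uterine 3 65.6% and 24.3%, and in uterine 12 39.4% and 42.8%. Uterine 3 and 12 thus lay below all oviductal libraries in the share of miR-92a-3p, and uterine 4 within them. In the share of miR-25-3p all 3 uterine libraries lay above the oviductal ones, uterine 4 by a small margin (17.1% against at most 16.6%). These shares were not tested. Uterine 12 was the only library in which miR-25-3p exceeded miR-92a-3p. It also had the highest share of miR-93-5p, which comes from the same transcript as miR-25, at 7.93% of member reads against 0.856% to 5.75% elsewhere.

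**Figure D3:**
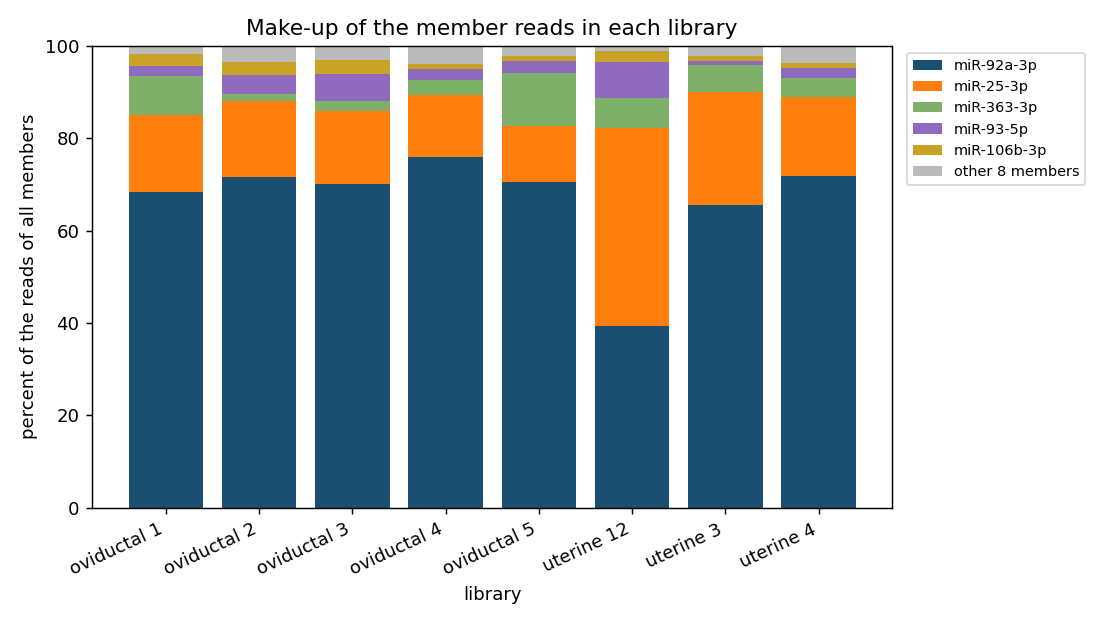
Percent of the reads of all 13 members that belong to each of the 5 most read members, and to the other 8 together (grey), in each of the 8 libraries. In uterine 12 miR-25-3p (orange) takes 42.8% and miR-92a-3p (dark blue) 39.4%, where miR-92a-3p takes 65.6% to 76.0% in the other libraries.

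Ratios between members read in the same library need no scaling factor. Of 19 pairs considered, 8 had reads of both members in every library and were tested by an exact two-sided permutation test of the group labels, for which the smallest possible p is 0.0357, with Benjamini-Hochberg adjustment over the 8. No pair of arms of 1 precursor qualified. None of the 8 passed after adjustment.

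Of the 8, only the ratio of miR-106b-3p to miR-25-3p, which lie near each other in the same gene, had groups that did not overlap. There were 15.7, 18.3, 19.4, 8.57 and 8.11 reads of miR-106b-3p per 100 reads of miR-25-3p in oviductal 1 to 5, and 5.42, 5.04 and 6.17 in uterine 12, 3 and 4. The uterine libraries were close to each other and all below the oviductal ones. The mean log2 ratio was -4.15 ± 0.14 (SD, n = 3) against -2.92 ± 0.61 (SD, n = 5), a difference of -1.24 with an exact permutation p of 0.0357 and an adjusted p of 0.286. The remaining member of that transcript, miR-93-5p, had 12.2, 24.6, 36.4, 18.7 and 20.9 reads per 100 of miR-25-3p in oviductal 1 to 5 and 18.5, 3.53 and 12.7 in uterine 12, 3 and 4, a log2 difference of -1.16 (exact permutation p = 0.143, adjusted p = 0.381), or -0.47 without uterine 3. The ratio of miR-93-5p to miR-106b-3p differed by 0.08 on the log2 scale (exact permutation p = 0.964).

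For the shared miR-92 seed, the reads of miR-25-3p per 100 of miR-92a-3p were 24.2, 22.9, 22.6, 17.6 and 17.3 in oviductal 1 to 5 and 109, 37.0 and 23.8 in uterine 12, 3 and 4. The oviductal values were close together, uterine 12 and 3 lay above them and uterine 4 within them. The difference in mean log2 ratio was 1.14, with -1.13 ± 1.13 in uterine (SD, n = 3) and -2.27 ± 0.23 in oviductal libraries (SD, n = 5), an exact permutation p of 0.0714 and an adjusted p of 0.286. Without uterine 12 the difference was 0.52.

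In the miR-17/miR-92 transcript, the log2 ratio of miR-17-5p to miR-20a-5p ranged from -1.53 to 1.16 in the oviductal libraries and was -1.77, -4.09 and 0.40 in uterine 12, 3 and 4, a difference of -1.75 (exact permutation p = 0.214, adjusted p = 0.381). Without uterine 3, where miR-17-5p had 1 read, it was -0.62, and without uterine 4 it was -2.86. The log2 ratio of miR-17-5p to miR-92a-3p differed by -1.27 and that of miR-20a-5p to miR-92a-3p by 0.48, both with an exact permutation p of 0.286. The first was -0.27 without uterine 3 and -2.21 without uterine 4, and the second 0.22 without oviductal 5. The ratio of miR-363-3p to miR-92a-3p differed by 0.72 (exact permutation p = 0.393), with 0.32 without uterine 12, 0.38 without oviductal 2 and 1.09 without oviductal 5, and ran from 2.18 to 16.4 reads per 100 within the oviductal group. Uterine values of these ratios overlapped the oviductal ones.

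**Figure D4:**
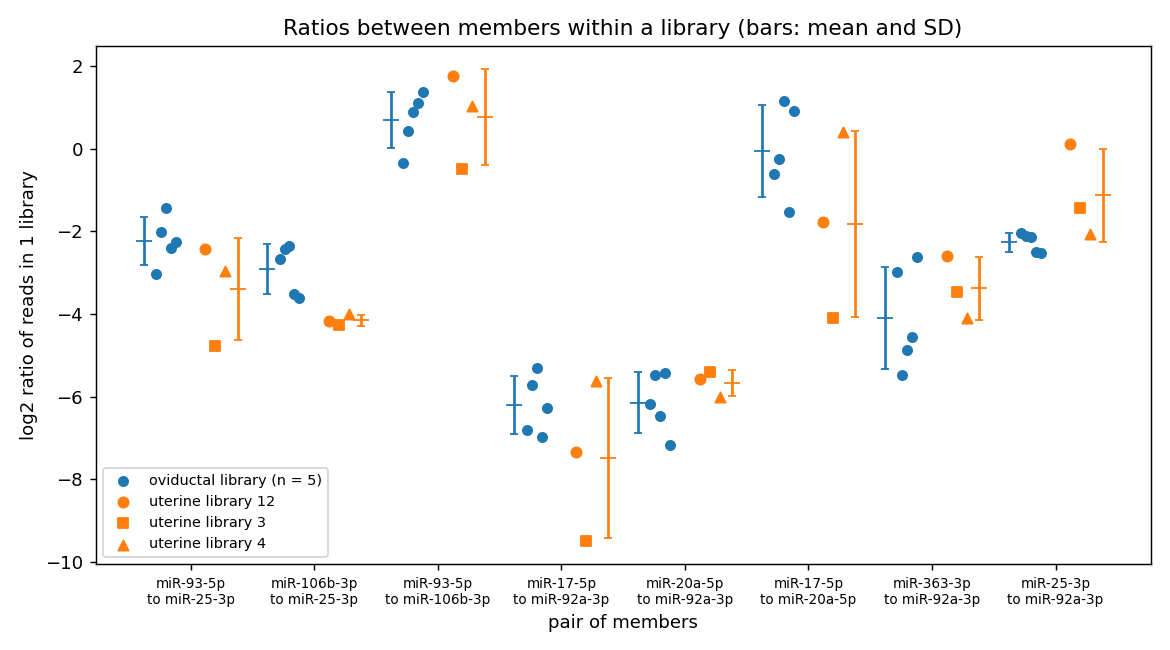
Log2 ratio of the reads of pairs of members within each library, for oviductal (blue) and uterine libraries (orange, 1 symbol per library), with the mean and SD of each group beside the points. For miR-106b-3p to miR-25-3p the 3 uterine values lie close to their mean of -4.15, below all oviductal values, and for miR-25-3p to miR-92a-3p uterine 12 stands apart at 0.12.

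Levels of the members moved together to different degrees over the 8 libraries, as a description on log2(CPM + 1), with shared library totals. Pearson's r with miR-92a-3p was 0.954 for miR-17-5p (Spearman's rho 0.929) and 0.830 for miR-20a-5p (rho 0.762), members of its cluster. It was 0.745 for miR-106b-3p, 0.652 for miR-93-5p and 0.626 for miR-25-3p (rho 0.833, 0.643 and 0.738). Within the MCM7 cluster r was 0.909 between miR-25-3p and miR-93-5p (rho 0.952), 0.832 between miR-25-3p and miR-106b-3p (rho 0.762) and 0.852 between miR-93-5p and miR-106b-3p (rho 0.619). Pairs from different clusters could be as high as pairs from 1 cluster. For miR-17-5p, r was 0.728 with miR-20a-5p of its own cluster (rho 0.548), and 0.824, 0.814 and 0.777 with miR-106b-3p, miR-93-5p and miR-25-3p of the MCM7 cluster (rho 0.786, 0.690 and 0.762). The X-linked miR-363-3p had r of 0.399 with miR-92a-3p and 0.0423 with miR-25-3p (rho 0.143 and -0.0714). Among 170 tested miRNAs outside these names, the profiles most like that of miR-92a-3p were those of miR-370-3p (r = 0.953, rho 0.898), miR-197-3p (r = 0.945, rho 0.952) and miR-125b-5p (r = 0.941, rho 0.810), where the median r was 0.404. Of these, miR-370-3p was at 0 CPM in uterine 12 and 3, and miR-197-3p at 4.30 CPM in uterine 12, where the floor of 3 reads stood for 12.9 CPM. Their r thus lean on values at or below the floor. The same limit applies to every r of miR-17-5p above. Its counts of 2 reads in uterine 12 and 1 read in uterine 3 fall short of the floor of 3 reads. The more abundant miR-125b-5p was at 5766 to 8276 CPM in the oviductal libraries and at 1531, 2171 and 5973 CPM in uterine 12, 3 and 4, the same order of uterine libraries as miR-92a-3p.

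MYC, which activates the miR-17/miR-92 transcript, is also known to repress a set of other miRNAs, among them let-7, miR-26a, miR-29 and miR-30. Of 52 names in that list 31 were tested, 16 with positive and 15 with negative fold changes, and none was called by edgeR. At an unadjusted p under 0.05 there were 3, 1 positive and 2 negative. The median log2 fold change of the list was 0.09, beside -0.02 for all tested miRNAs. As a share of reads, with no TMM scaling, the list took 28.6% to 32.3% of oviductal reads, against 25.2%, 20.3% and 24.3% in uterine 12, 3 and 4, lower in each uterine library, where miR-148a-3p took 47.6%, 54.4% and 29.2% of the same totals. This sum was not tested. Shares of the list on totals without miR-148a-3p were not computed, so the lower uterine shares hold only for totals that include it. The most read members of the list, let-7i-5p and let-7b-5p, which restrain growth in many tissues, had log2 fold changes of 0.15 ± 0.36 and 0.14 ± 0.41 (SE), with edgeR adjusted p of 0.906 and 0.937.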

How the data were processed

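Small RNA libraries were compared as 5 oviductal and 3 uterine pools. The authors deposited read counts, whole numbers for each pair of mature miRNA and precursor, and RPM, which equalled count over column sum within 0.005. OryCun2.0 (build) and FastQC are named in the submitters' processing notes, while aligner and counter were not given in the sources used here. Of repeated names only the most read row was used. CPM were computed from these counts without scaling factors, so their ratios differ from fold changes. Counts were tested over the whole table with edgeR 4.0.16 (quasi-likelihood, robust, TMM, filterByExpr, Benjamini-Hochberg threshold 0.05) under R 4.3.3, a procedure tested on simulated data. SE were derived from F statistics. Ratios used a pseudocount of 0.5 reads and exact permutation with scipy 1.17.1. DESeq2 1.42.0, limma 3.58.1 (voom), other scalings and filters, replicate blocks and removal of libraries were alternatives. Every member was named, with the 3 miRNAs most like the most read one, same-seed miRNAs, and from the marker lists those most read. Members and lists were chosen with earlier results of these data known. Markers named below the most read, miR-486-3p among them, and the names with fewer than 10 reads were named after their values were seen. Mature sequences were not used here.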

Additional observations from a re-analysis of the deposited data

Results flagged for a closer look

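In the oviductal group 4 members had 1 library far above the other 4 by a gap test at the 95% level, out of 22 sets of 5 values checked. Its chance rate of about 1 in 20 assumes normally spread values. That rate does not hold for counts this sparse, so the number of flags is not set against it. The 4 members were miR-19b-3p at 153 CPM in oviductal 4, miR-92a-5p at 15.8 CPM and miR-92a-2-5p at 28.1 CPM in oviductal 5, and miR-20b-5p at 21.0 CPM in oviductal 2. The last stands for 1 read in a shallow library, and none of the 4 was among the tested members. For miR-92a-5p and miR-92a-2-5p the other 4 oviductal libraries had no read.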

How the results depend on the processing

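No tested member was called under any of the 19 alternatives, with a smallest adjusted p of 0.0904 (miR-92a-3p without uterine 4). Over these alternatives miR-92a-3p, miR-106b-3p and miR-20a-5p stayed negative, and of all member values 142 kept their sign and 6 turned. The sign turned for miR-25-3p with library totals only (-0.14), with the replicate block by title number (-0.21) and without uterine 12 (-0.12), for miR-363-3p with that block (0.18), and for miR-93-5p (0.24) and miR-17-5p (0.0083) without both shallow oviductal libraries. When single libraries were left out, miR-25-3p ran from -0.12 to 0.36, and the difference in the ratio of miR-93-5p to miR-106b-3p from -0.42 (without uterine 12) to 0.71, with negative values also without oviductal 1 (-0.19) and uterine 4 (-0.06). The cause was not tested. Library totals moved the median of all miRNAs by -0.28 and upper-quartile factors by 0.21. The number of all miRNAs called, 3 by edgeR, was 11 by DESeq2, 1 by limma-voom, 1 with library totals, 6 with upper-quartile factors, 13 with no filter, 7 with rows summed over precursors and 0 without both shallow libraries (20 at an unadjusted p under 0.05). It ran from 1 to 27 when single libraries were left out (1 without oviductal 2 or uterine 12, 9 without uterine 4, 27 without uterine 3). With a replicate block by title number or by library name number edgeR called 0 (8 and 11 at an unadjusted p under 0.05). Numbers 3 and 4 stand in both groups. The deviations of same-numbered libraries from their group means correlated at -0.170 and -0.0831, and at -0.153 for oviductal 1 with uterine 12. Pairs with different numbers ran from -0.167 to 0.195. With 3 uterine libraries such values cannot show whether same-numbered pools share animals, and pairing stays unknown. The members' share of oviductal reads rose from 1.31% to 1.98% with rows summed, since miR-92a-3p and miR-19b-3p stand on 2 rows each, and to 1.89% with totals without miR-148a-3p. Depth limits the sparse members: 3 reads stood for up to 70.3 CPM.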
